A study of Rattus norvegicus with 10 samples.

Results

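The genes described here are Ubd, which encodes the ubiquitin-like modifier FAT10, and 7 genes of the immunoproteasome and the interferon response: Psmb8, Psmb9, Psmb10, Tap1, Tap2, Gbp2 and Irf1. They are 8 of the 16497 gene symbols in the table (17221 transcripts), each with 1 transcript, and were found by their symbol. Ubd had been picked for its rise against the animals sampled before therapy, so its comparisons with that group are given as a description, and calls of it there are no test. All 8 were above 1 CPM (reads of a transcript per 1e+06 counted, scaled by the authors with TMM factors) in every library and were among the 10259 transcripts tested.

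The libraries are RNA-seq of muscle from just under the skin, taken around the stimulated points of female Wistar rats in which bovine collagen had raised arthritis, the usual model of rheumatoid arthritis (RA). All animals of all groups carried the disease, had been shaved and were sampled under deep anaesthesia. There were 5 groups of 2 libraries, 1 per labelled replicate: RA_0, before therapy; AP_1h and AP_34d, 1 h and 34 days into acupuncture, in which a short steel needle was put in and twirled; PLA_1h and PLA_34d, the same times under placebo. Placebo was sterile saline given into the peritoneum and not at the sampled points, so that the arms differ in the site as well as in the kind of treatment. Untreated arthritic animals at 1 h or 34 days were not analysed here.

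FAT10 is joined to other proteins and sends them to the proteasome, and interferon gamma and tumour necrosis factor (TNF) are its classical inducers. The same cytokines switch on 3 catalytic subunits, Psmb8, Psmb9 and Psmb10, which take the places of the constitutive subunits Psmb5, Psmb6 and Psmb7 in newly built proteasomes and change the peptides that these cut. Tap1 and Tap2 form the transporter that carries such peptides into the endoplasmic reticulum for loading onto MHC class I. Irf1 is a transcription factor of the interferon gamma response, and Gbp2 is a guanylate-binding GTPase commonly read as a sign of it. Resting muscle fibres make little of this machinery, whereas leukocytes, lymphocytes above all, carry much of it.

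Of the 8 genes, 5 lie on chromosome 20 in the rat major histocompatibility complex and its flank (positions in build rn4, as in the table). Tap2 (chr20:4770446-4784488), Psmb8 (chr20:4786260-4789223), Tap1 (chr20:4790363-4800730) and Psmb9 (chr20:4801187-4806608) fill a stretch of 36.2 kb that holds these 4 transcripts and no others of the table. Tap1 and Psmb9 are read away from each other across a gap of 456 bases. Ubd (chr20:1475948-1477895) lies 3.29 Mb from Tap2. Psmb10 (chr19:35777710-35780194), Gbp2 (chr2:240523000-240541078) and Irf1 (chr10:39220600-39227602) are elsewhere, and none of the 8 overlaps a transcript of another symbol.

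The stretches before the start sites were searched for motifs of the kind through which interferon and TNF are known to act. Those with a match are shown. In the 250 bases before each start (RefSeq, assembly GRCr8, positions on that assembly; all 8 genes matched), 3 motifs were searched on both strands: an interferon-stimulated response element (ISRE), a gamma-activated sequence (GAS, TTCNNNGAA) and a κB site. An ISRE was present in 4 of the 8 (Tap1, Tap2, Psmb10, Gbp2) and in 3.41% of 33469 windows of that length; a GAS in 2 (Irf1, Psmb8) and in 7.67%; a κB match in 3 (Ubd, Tap1, Irf1) and in 6.33%. Psmb9 had none of the 3 motifs in its window. Capitals mark the match, each sequence is written on the strand of its gene, and for Ubd the whole window is given.
Ubd κB, chr20:1392686-1392935, minus strand: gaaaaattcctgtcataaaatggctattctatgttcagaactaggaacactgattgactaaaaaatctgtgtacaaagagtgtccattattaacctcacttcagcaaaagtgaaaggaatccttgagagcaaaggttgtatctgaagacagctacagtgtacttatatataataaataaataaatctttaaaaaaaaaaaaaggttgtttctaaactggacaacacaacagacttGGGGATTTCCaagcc
Tap1 κB, chr20:4668564-4668623, minus strand: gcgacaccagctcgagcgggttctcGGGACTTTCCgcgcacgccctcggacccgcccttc
Irf1 κB, chr10:38417845-38417904, plus strand: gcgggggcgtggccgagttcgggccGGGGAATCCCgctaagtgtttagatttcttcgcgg
Tap1 ISRE, chr20:4668630-4668689, minus strand: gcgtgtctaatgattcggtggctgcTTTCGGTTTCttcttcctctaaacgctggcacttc
Tap2 ISRE, chr20:4652303-4652362, minus strand: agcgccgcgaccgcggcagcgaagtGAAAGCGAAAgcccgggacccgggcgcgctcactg
Psmb10 ISRE, chr19:50743331-50743390, minus strand: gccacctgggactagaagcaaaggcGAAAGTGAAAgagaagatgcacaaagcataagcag
Psmb10 ISRE, chr19:50743293-50743334, minus strand: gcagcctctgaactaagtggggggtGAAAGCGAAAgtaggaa
Gbp2 ISRE, chr2:234005671-234005726, plus strand: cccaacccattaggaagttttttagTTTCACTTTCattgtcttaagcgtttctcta
Irf1 GAS, chr10:38417768-38417826, plus strand: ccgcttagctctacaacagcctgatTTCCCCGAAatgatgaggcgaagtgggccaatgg
Psmb8 GAS, chr20:4657243-4657281, minus strand: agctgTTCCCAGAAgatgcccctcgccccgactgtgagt

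In Ubd the last base of the κB match lies 6 bases before the annotated start, and neither interferon motif was found in the window. Psmb10 holds a pair of ISRE matches, and in Tap1 an ISRE and a κB match stand in the same window, ending 112 and 46 bases before the start. A match is a string of letters and not a measured binding site.

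The 10 libraries held 5371687 to 8899521 counted reads, so that 1 CPM stood for 4.19 to 10.1 reads. All 12 muscle markers looked up were present, with a summed level of 146147 to 369147 CPM. PLA_34d replicate 1 stood apart: its summed leukocyte markers reached 840 CPM against 51.9 in PLA_34d replicate 2 and 52 to 56.6 at RA_0, and its lymph node markers 659 CPM against at most 69.9 elsewhere. AP_1h replicate 1 had the next highest leukocyte sum, 214 CPM, while the 8 libraries besides these stood at 51.9 to 111 CPM. Ptprc, the pan-leukocyte gene, was listed at 0 in all libraries although other leukocyte genes were not, and 1 of the 21 symbols of that list was not in the table. Since the tissue was sequenced in bulk, a change in the share of a cell type and a change of RNA within its cells cannot be told apart. The results below are therefore also given without these libraries.

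By group mean, Ubd was lowest before therapy and highest under placebo. Its level was 2.62 and 3.86 CPM in the RA_0 libraries, 16.4 and 13.7 in AP_1h, 28.6 and 32.8 in PLA_1h, 8.2 and 1.79 in AP_34d, and 23.7 and 25.4 in PLA_34d. The group means were 3.24 ± 0.875, 15.1 ± 1.92, 30.7 ± 3.02, 5 ± 4.53 and 24.6 ± 1.26 CPM (SD, n = 2). In order, PLA_1h stood above PLA_34d, PLA_34d above AP_1h, and AP_1h above both AP_34d and RA_0, with no overlap between these neighbours. AP_34d and RA_0 overlapped, since the RA_0 libraries lay between the 2 AP_34d libraries. These levels rest on 11 to 288 reads per library, so that the lowest of them are set by few reads.

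**Figure D1:**
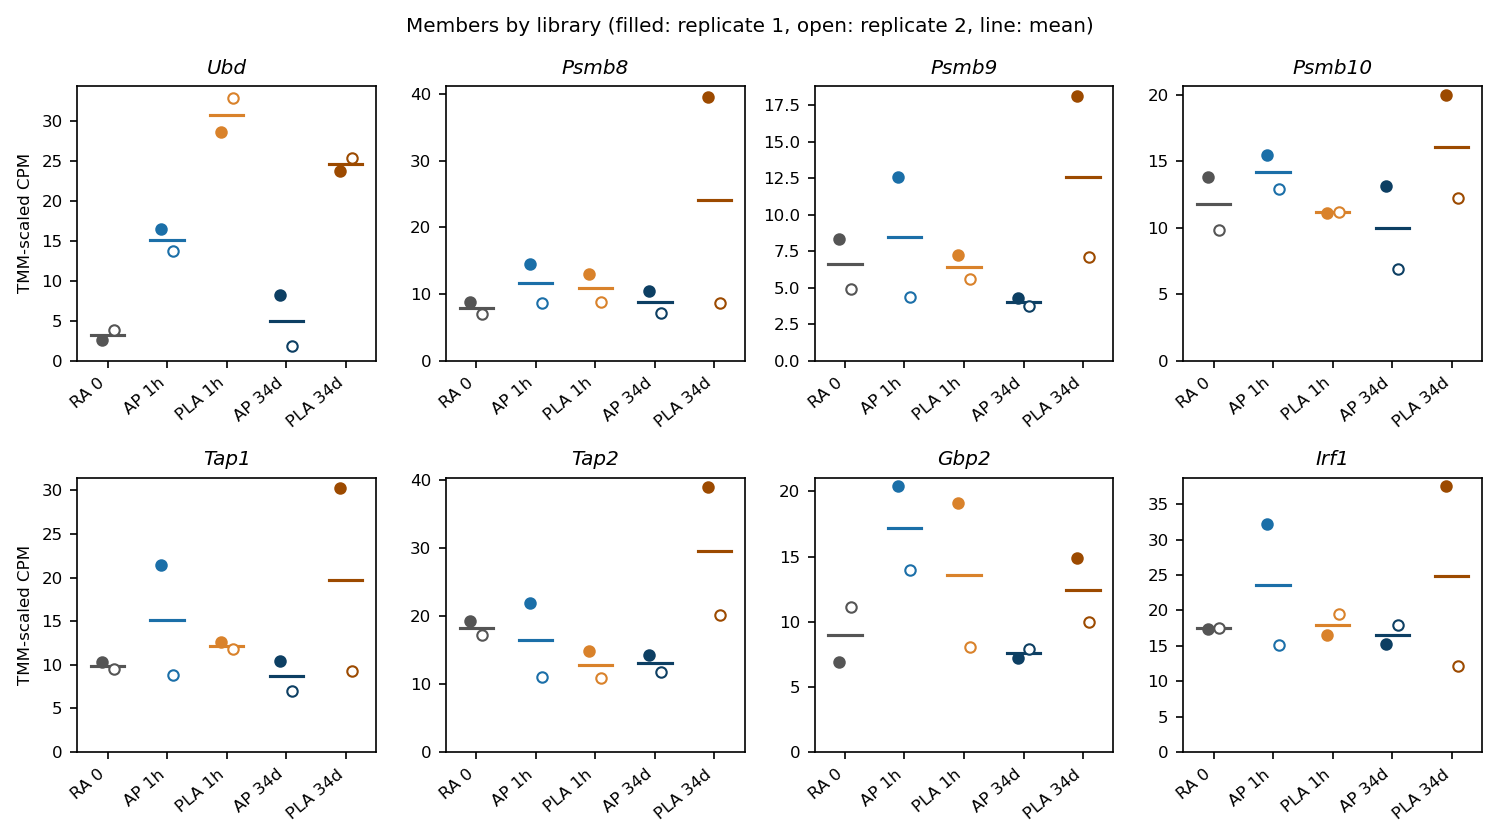
TMM-scaled CPM (vertical axes, from 0) of the 8 genes in each library; each panel is a gene, filled points are replicate 1, open points replicate 2 and lines the group mean. Ubd is high in all 4 placebo libraries (23.7 to 32.8 CPM), whereas most other genes are highest in the single library PLA_34d replicate 1.

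Against RA_0, the log2 difference of Ubd (on log2(CPM + 1), ± SE of the limma fit) was 1.93 ± 0.49 in AP_1h, 2.91 ± 0.49 in PLA_1h, 2.61 ± 0.49 in PLA_34d and 0.27 ± 0.49 in AP_34d. In mean CPM these are ratios of 4.65, 9.46, 7.57 and 1.54. As Ubd was picked on this rise and the RA_0 libraries are shared by all 4 comparisons, nothing further is drawn from them. Without AP_34d replicate 1 the difference of AP_34d from RA_0 became -0.59.

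Ubd was lower under acupuncture than under placebo at both times. At 1 h the log2 difference of AP_1h from PLA_1h was -0.98 ± 0.49 (limma adjusted p 1), and at 34 days that of AP_34d from PLA_34d was -2.33 ± 0.49 (limma adjusted p 0.683), a ratio of mean CPM of 2.04 and 4.91 in favour of placebo. Over both times it was -1.66 ± 0.35 (limma adjusted p 0.387), with each of the 4 acupuncture libraries (1.79 to 16.4 CPM) below each of the 4 placebo libraries. Such a separation in this direction was seen in 1.56% of all transcripts tested. Ubd was also the only one of the 8 to meet the rule of the study over both times (unadjusted p under 0.05, at least 2-fold, mean of at least 1 CPM), which 0.868% of all transcripts met downward. None of these passed the threshold of 0.05 in limma. DESeq2 on the reads recovered from the deposited values called Ubd at 34 days (adjusted p 0.0208) and over both times (adjusted p 0.0119), while limma-voom and edgeR did not. Over all transcripts DESeq2 called 90 and 64 in these comparisons, where limma, limma-voom and edgeR called 0. The placebo libraries are among those on which Ubd was picked, so these values are not independent of that choice. PLA_34d replicate 2, with the lowest leukocyte sum of all libraries, had 25.4 CPM of Ubd. Without PLA_34d replicate 1 and AP_1h replicate 1 the log2 difference over both times was -1.74.

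Within the acupuncture arm Ubd was lower at 34 days than at 1 h, by a log2 difference of -1.66 ± 0.49 (limma adjusted p 0.651), with no overlap. Within the placebo arm it was -0.31 ± 0.49 (limma adjusted p 0.999), the 34 day libraries lying just under those of 1 h. The interaction of therapy and time, which asks whether the gap between the arms grew, was -1.35 ± 0.69 (limma adjusted p 1) and did not pass.

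The 3 inducible proteasome subunits did not share the pattern of Ubd. Psmb8, whose product replaces that of Psmb5, was at 8.83 and 6.98 CPM in RA_0, 14.5 and 8.68 in AP_1h, 13 and 8.77 in PLA_1h, 10.4 and 7.17 in AP_34d, and 39.6 and 8.67 in PLA_34d. A single library, PLA_34d replicate 1, was thus 4.5 times the median of the 10, while its partner lay inside the RA_0 range. Psmb9, which takes the place of Psmb6, was at 8.35 and 4.9 CPM in RA_0, 12.6 and 4.34 in AP_1h, 7.24 and 5.62 in PLA_1h, 4.3 and 3.73 in AP_34d, and 18.1 and 7.11 in PLA_34d. Here both AP_34d libraries were below all of RA_0, AP_1h and PLA_34d, although narrowly so for AP_1h replicate 2. Psmb10, the replacement for Psmb7, varied least of the 3, with 13.8 and 9.8 CPM in RA_0, 15.5 and 12.9 in AP_1h, 11.1 and 11.2 in PLA_1h, 13.1 and 6.87 in AP_34d, and 20 and 12.2 in PLA_34d. Its AP_1h libraries were both above its PLA_1h libraries, by less than 1 on the log2 scale.

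Set against the constitutive subunit that each replaces, the same library stood out. The ratios are CPM over CPM without correction for transcript length, so they are read between libraries and not between genes. Psmb8 per 100 Psmb5 was 2.78 to 9.19 in 9 libraries and 36.5 in PLA_34d replicate 1. Psmb9 per 100 Psmb6 was 6.65 to 24.4 in 9 libraries and 61.2 in that library, and Psmb10 per 100 Psmb7 was 2.67 to 6.34 and 18. PLA_34d replicate 1 also had the lowest Psmb5, Psmb6 and Psmb7 of the 10 libraries, at 108, 29.5 and 111 CPM, so its ratios reflect both subunits. These ratios were 8.46, 5.76 and 3.22 times their medians, where Psmb8, Psmb9 and Psmb10 alone were 4.5, 2.84 and 1.59 times theirs. PLA_34d replicate 2 was at 4.67, 13.1 and 5.71, inside the range of the other groups for all 3 ratios. The second highest value of Psmb9 per 100 Psmb6, 24.4, was that of AP_1h replicate 1. In AP_34d the libraries were close to each other for the first 2 ratios, at 4.31 ± 0.149 and 6.78 ± 0.184 (SD, n = 2).

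**Figure D2:**
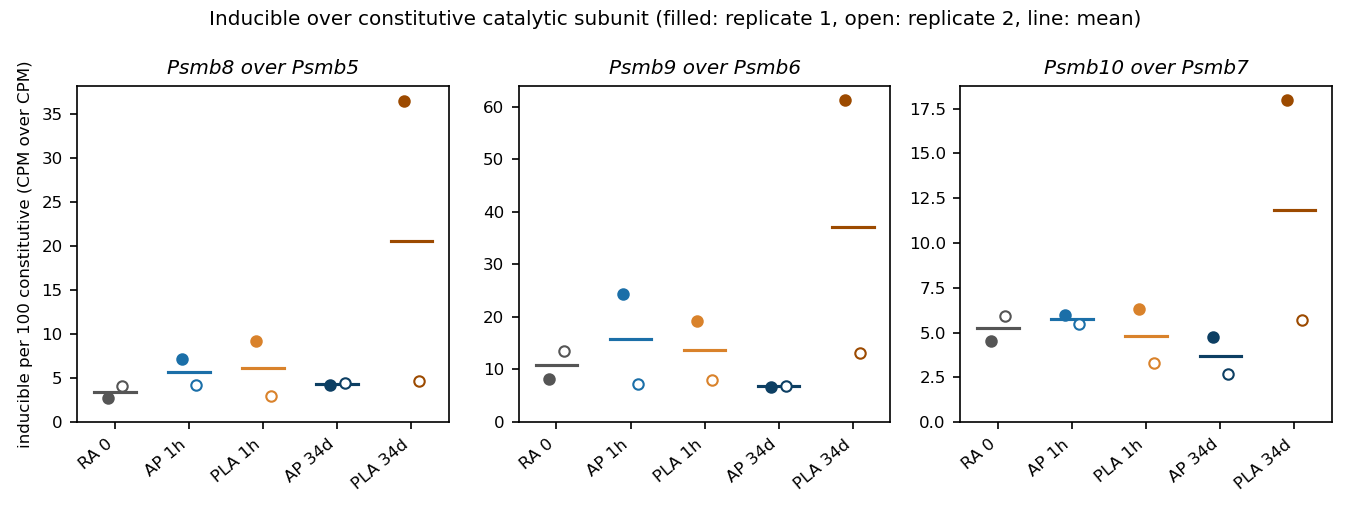
CPM of each inducible catalytic subunit per 100 CPM of the constitutive subunit it replaces (vertical axes, from 0), by library; filled points are replicate 1, open points replicate 2 and lines the group mean. PLA_34d replicate 1 is highest in all 3 panels (36.5, 61.2 and 18) and PLA_34d replicate 2 lies with the other groups.

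Like the inducible subunits, both transporter genes were highest in PLA_34d replicate 1 and second highest in AP_1h replicate 1. Elsewhere they followed those subunits less evenly: in PLA_1h Tap2 was below RA_0, where Psmb8 was fitted higher. Tap1 was at 10.3 and 9.51 CPM in RA_0, 21.4 and 8.82 in AP_1h, 12.6 and 11.8 in PLA_1h, 10.4 and 7.02 in AP_34d, and 30.3 and 9.24 in PLA_34d. Both PLA_1h libraries were above both RA_0 libraries, but by under 1 on the log2 scale. Tap2 was at 19.3 and 17.2 CPM in RA_0, 21.9 and 11.1 in AP_1h, 14.8 and 10.9 in PLA_1h, 14.3 and 11.8 in AP_34d, and 39 and 20.2 in PLA_34d. It was the gene besides Ubd whose groups separated most often: PLA_34d was above RA_0, PLA_1h and AP_34d in both libraries, and PLA_1h and AP_34d were below RA_0. The log2 difference of Tap2 was 1.09 ± 0.41 between PLA_34d and PLA_1h (limma adjusted p 0.999) and -1.06 ± 0.41 between AP_34d and PLA_34d (limma adjusted p 0.856). Without PLA_34d replicate 1 and AP_1h replicate 1 these became 0.63 and -0.60.

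Gbp2 and Irf1 read the interferon response outside antigen processing. Gbp2 was at 6.92 and 11.1 CPM in RA_0, 20.4 and 14 in AP_1h, 19.1 and 8.07 in PLA_1h, 7.23 and 7.92 in AP_34d, and 14.9 and 9.95 in PLA_34d. It was the one gene besides Ubd that was not highest in PLA_34d replicate 1, its 2 highest libraries being those labelled replicate 1 at 1 h. Both AP_1h libraries were above RA_0 and above AP_34d, the latter by a log2 difference of -1.07 ± 0.44 for AP_34d against AP_1h (limma adjusted p 0.906). Irf1 was at 17.4 and 17.5 CPM in RA_0, 32.2 and 15.1 in AP_1h, 16.5 and 19.5 in PLA_1h, 15.2 and 17.9 in AP_34d, and 37.5 and 12.2 in PLA_34d. No pair of groups separated for Irf1, and PLA_34d held both its highest and its lowest library.

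For each comparison limma called 0 of the 8 genes at an adjusted p under 0.05. Over all transcripts it called 0.0292% in AP_1h against RA_0 and 0% in the other comparisons. At an unadjusted p under 0.05 there were 0 to 3 of the 8 genes per comparison, and 266 to 912 of the 10259 transcripts. On the recovered reads limma-voom and edgeR also called 0 of the 8. DESeq2 called none of the 7 genes besides Ubd, and its calls of Ubd between the arms are those given above. The rule of the study and the separation of the libraries are therefore given as second readings, each with its share among all transcripts tested.

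Between the arms at 34 days, all 8 genes were fitted lower in AP_34d than in PLA_34d. The median log2 difference was -0.98, or -0.91 without Ubd, against 0.00 over all transcripts. The rule of the study was met by 3 of the 8 in this direction (Ubd, Psmb9 and Tap2), beside 2.18% of all transcripts, and the libraries of 4 did not overlap (the same genes and Gbp2), beside 15%. As Ubd was picked on libraries used here, its part in these counts and in those of the paragraphs below is no test. The log2 difference of Psmb9 was -1.31 ± 0.53 (limma adjusted p 0.856). These counts depended on PLA_34d: without replicate 1, Ubd alone met the rule, and without replicate 2 it was met by 6 genes, beside 10.1% of all transcripts in that setting. Without AP_34d replicate 2, Ubd alone met it again. Leaving out PLA_34d replicate 1 and AP_1h replicate 1 took the difference of Psmb8 from -1.04 to -0.01, that of Tap1 from -0.91 to -0.10, that of Psmb9 to -0.70, and turned that of Irf1 from -0.36 to 0.41. Ubd, at -2.38, was not reduced in that setting, and over all alternatives it ran from -3.19 to -1.47.

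At 1 h, in AP_1h against PLA_1h, 7 of the 8 genes were fitted higher, with a median of 0.24 against 0.01 over all transcripts. None met the rule of the study, which 2.62% of all transcripts met in either direction. Psmb10 was without overlap higher and Ubd without overlap lower, beside 13.9% and 16.7% of all transcripts. Without AP_1h replicate 1 and PLA_34d replicate 1, Psmb8, Psmb9, Tap1, Tap2 and Irf1 turned to -0.27, -0.47, -0.42, -0.18 and -0.23, while Psmb10 and Gbp2 were still higher in AP_1h, at 0.19 and 0.15.

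**Figure D3:**
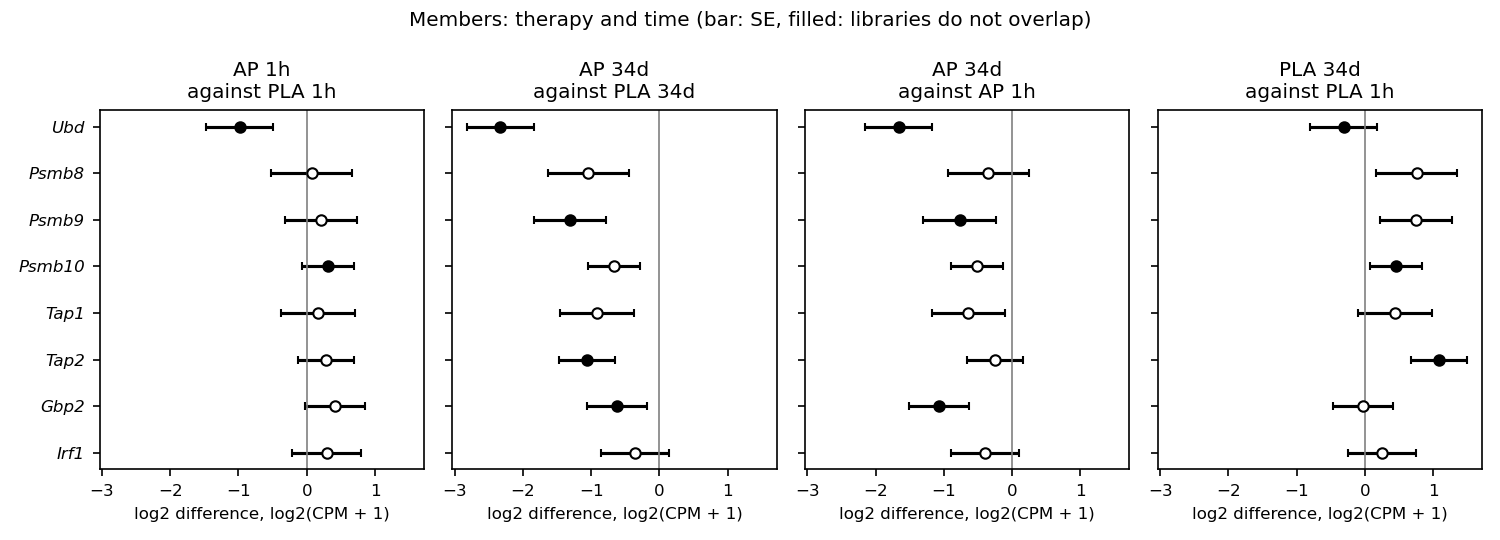
Fitted log2 difference (horizontal axes, on log2(CPM + 1), first group minus second; bars are SE) of each gene in the comparisons between arms and between times; filled points mark genes whose libraries do not overlap. All 8 genes are below 0 in AP_34d against PLA_34d, from -2.33 for Ubd to -0.36 for Irf1, and none passed limma's threshold.

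Set against RA_0, the 7 genes besides Ubd had a median log2 difference of 0.32 in AP_1h, 0.03 in PLA_1h, -0.20 in AP_34d and 0.60 in PLA_34d, where the median of all transcripts was within 0.01 of 0. None of the 7 met the rule of the study in any of the 4 comparisons. The share of all transcripts that met it was 6.12%, 1.67%, 2.82% and 2.42%. Without overlap, Gbp2 was higher in AP_1h (20.6% of all transcripts were), Tap1 higher (15.8%) and Tap2 lower (13.6%) in PLA_1h, Psmb9 and Tap2 lower in AP_34d (15.9%), and Tap2 higher in PLA_34d (16.8%). Without PLA_34d replicate 2, the library with little lymphoid RNA, 5 of the 7 (Psmb8, Psmb9, Tap1, Tap2 and Irf1) met the rule in PLA_34d against RA_0, beside 10.1% of all transcripts in that setting. The RA_0 libraries are shared by these comparisons, so their values are set side by side and not combined.

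Over time, all 8 genes were fitted lower in AP_34d than in AP_1h (median -0.58, all transcripts 0.00), of which Ubd and Gbp2 met the rule of the study (1.38% of all transcripts in that direction) and Ubd, Psmb9 and Gbp2 were without overlap lower (16%). Without AP_34d replicate 2 none met the rule, and without AP_34d replicate 1 or AP_1h replicate 1 fewer genes met it than with all libraries. In the placebo arm 6 of 8 were fitted higher at 34 days than at 1 h. Tap2 met the rule (1.34% in that direction), but not without PLA_34d replicate 1 or without PLA_1h replicate 2. Its log2 difference ran from 0.63 to 1.55 over the alternatives. Psmb10 and Tap2 were without overlap higher (12.7%) and Ubd lower (14.4%). In the interaction, Tap2 alone met the rule (2.06% of all transcripts in that direction), and none did when all transcripts with reads were fitted. The log2 difference of Tap2 there ran from -1.80 to -0.42 over the alternatives.

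Across the 10 libraries the 7 genes besides Ubd went together and with leukocyte RNA, Gbp2 least of them. In 6 of them PLA_34d replicate 1 was highest and AP_1h replicate 1 second, the same libraries that led the leukocyte sum. Pearson's r between pairs of the 7 (log2(CPM + 1), 21 pairs, 10 libraries) had a median of 0.78 and a range of 0.35 to 0.92. For each pair, the 2 libraries farthest from the median of its first gene were then left out, so these libraries differed between pairs. The median was then 0.37 and the range -0.19 to 0.74. Pairs that held Gbp2 were at 0.35 to 0.59. With Ubd, r was 0.18 to 0.52, with a median of 0.47. Without the 2 libraries farthest from Ubd's median it was 0.09 to 0.43, with a median of 0.29 beside the 0.37 above. With the leukocyte sum, r was 0.93 for Psmb8, 0.86 for Tap1, 0.85 for Irf1, 0.73 for Psmb9, 0.72 for Tap2, 0.64 for Psmb10, 0.48 for Gbp2 and 0.26 for Ubd. Without the 2 libraries farthest from the median of that sum, r was between -0.61 and 0.36 for all 8. The relation with the leukocyte sum rests on those libraries. The points share depth and normalization, and whether leukocyte RNA accounts for these levels was not tested.

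**Figure D4:**
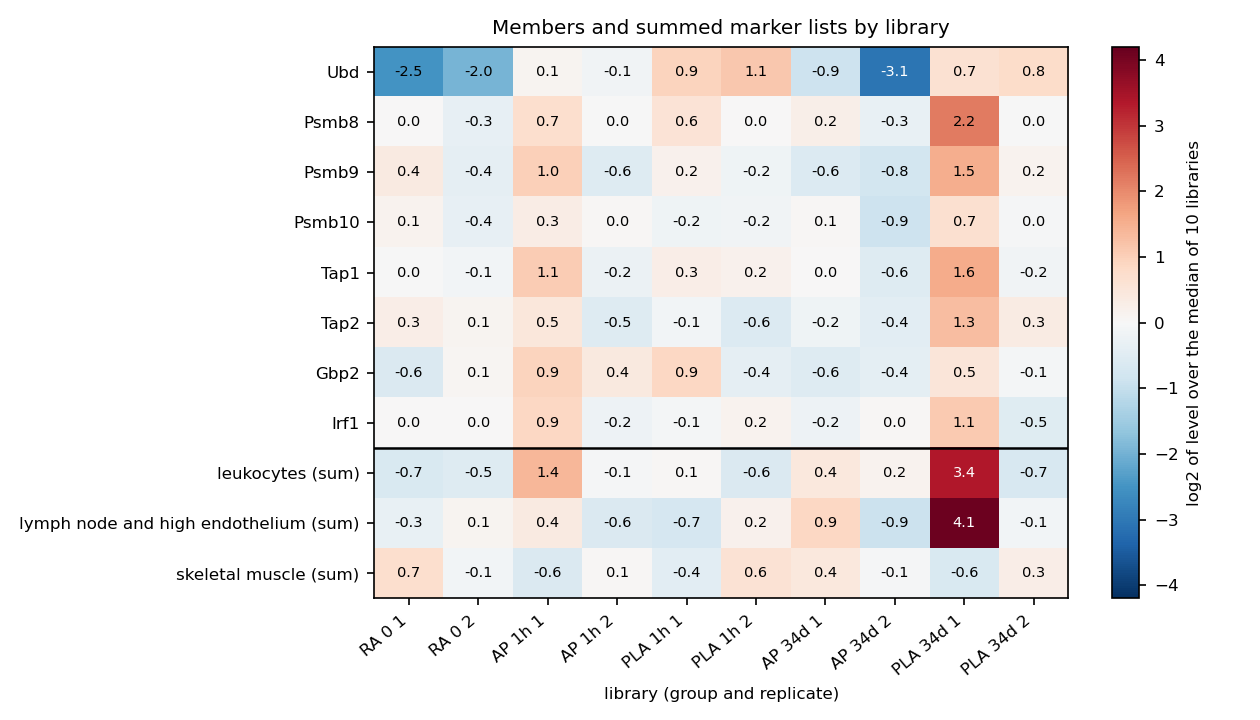
Log2 of each library's level over the median of the 10 libraries (colour and printed value) for the 8 genes and for 3 summed marker lists below the line; columns are libraries. PLA_34d replicate 1 is at 3.36 for leukocytes, 4.11 for lymph node and 2.17 for Psmb8, while Ubd is raised alike in both PLA_34d libraries (0.65 and 0.76).

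The rest of the proteasome core took the other direction at 34 days. All 11 other core subunits tested were higher in both AP_34d libraries than in both PLA_34d libraries, beside 16% of all transcripts, with log2 differences of 0.56 to 0.90 and a median of 0.75. None met the rule of the study or passed limma (smallest adjusted p 0.856). They stayed higher in each alternative, at 0.25 to 0.71 without PLA_34d replicate 1 and 0.35 to 0.69 in CPM without TMM factors, a scaling that moved the median of all transcripts in this comparison to -0.19 and left 9 of the 11 without overlap. The constitutive counterparts Psmb5, Psmb6 and Psmb7 were at 204, 59.4 and 267 CPM in AP_34d and 147, 41.9 and 162 in PLA_34d, a log2 difference of 0.49 to 0.79, of which Psmb7 was without overlap higher. Without PLA_34d replicate 1 their differences were 0.10 to 0.32. The 8 partners and regulators tested had a median of 0.30 in AP_34d against PLA_34d, with 3 without overlap higher and 1 lower, beside 16% and 15% of all transcripts. The lower one, picked out after its value was seen, was Psme2, a subunit of the interferon-inducible proteasome activator. Psme4, a proteasome activator found in the nucleus, met the rule of the study with 821 ± 379 CPM against 341 ± 49.1 (SD, n = 2).

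**Figure D5:**
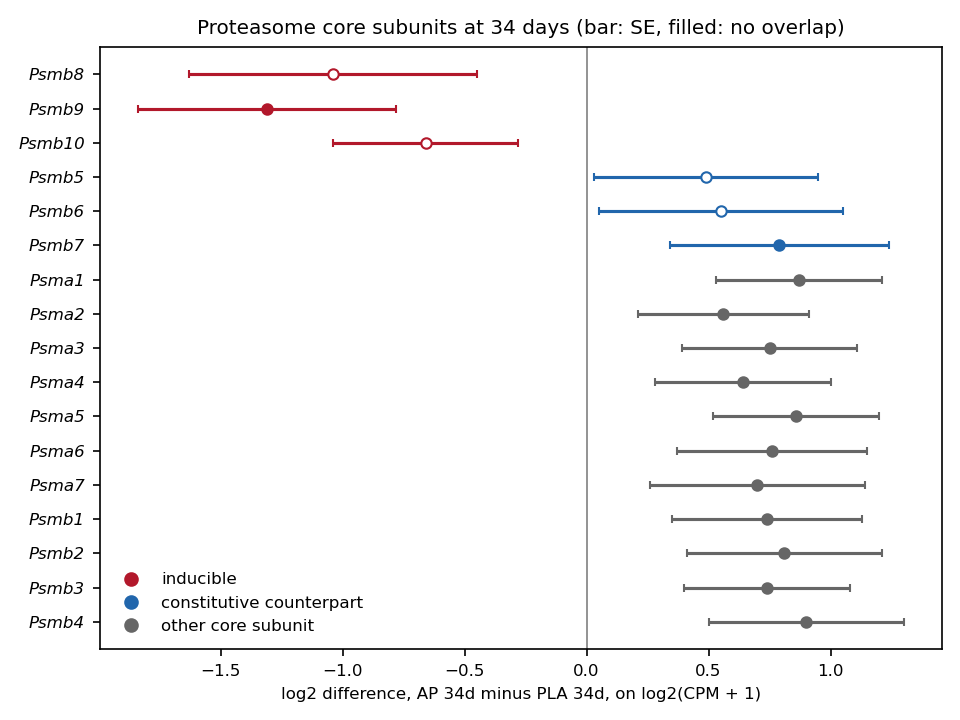
Fitted log2 difference of AP_34d from PLA_34d (horizontal axis, on log2(CPM + 1); bars are SE) for the 17 subunits of the proteasome core; filled points mark libraries that do not overlap. The 3 inducible subunits lie at -1.31 to -0.66, and the constitutive and other core subunits at 0.49 to 0.90.

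Other genes around the transporter take part in loading peptides onto MHC class I. Of 20 transcripts tested, none passed limma. The rule of the study was met upward by 2, 5, 1 and 3 in AP_1h, PLA_1h, AP_34d and PLA_34d against RA_0. None met it downward, and 6.12%, 1.67%, 2.82% and 2.42% of all transcripts met it in either direction. Of the same 20, 11 were without overlap higher in AP_1h, 10 in PLA_1h, 8 in AP_34d and 11 in PLA_34d, and 1, 0, 2 and 0 lower, beside 20.6%, 15.8%, 16.4% and 16.8% of all transcripts for the higher direction. For the lower direction the share was 13.6% in PLA_1h and 15.9% in AP_34d, and it is not given for AP_1h and PLA_34d. The median log2 difference of the 20 was 0.45, 0.38, 0.21 and 0.62, and positive in all alternatives. In AP_34d against PLA_34d 1 was without overlap higher and 8 lower, beside 16% and 15% of all transcripts, with a median of -0.31 that was negative in all 24 alternatives (-0.66 to -0.05). B2m, the light chain of class I, was at 526 and 640 CPM in RA_0, 1038 and 1713 in AP_1h, 1565 and 1067 in PLA_1h, 900 and 487 in AP_34d, and 787 and 710 in PLA_34d. It met the rule of the study in AP_1h and PLA_1h against RA_0 and in AP_34d against AP_1h (smallest limma adjusted p over the pairs of groups 0.473). Among the class I heavy chains, RT1-A2 met it in AP_1h and PLA_1h against RA_0, RT1-CE10 in PLA_1h and PLA_34d against RA_0, and RT1-S3 in 4 pairs. Reads of these near-identical genes may have been split or dropped, and RT1-A2 and RT1-S3 overlap another symbol, so they are uncertain. 

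Interferon gamma and TNF themselves were seen in few or no reads. Ifng, the gene of interferon gamma, was listed at 0 in 9 libraries and at 0.108 CPM, 1 read, in AP_1h replicate 1, and Tnf was at 0 to 1.12 CPM, so that neither could be compared at this depth. Of 16 transcripts tested in this list, 2 met the rule of the study in any pair of groups: Irf3, which overlaps another symbol, in 4 pairs, and Socs3, an inhibitor of cytokine signalling, in AP_1h against RA_0 with 39.1 and 11.8 CPM against 1.43 and 4.9. The share of all transcripts meeting it in any pair was not counted, so this number is not read as a result. The list's median log2 difference was -0.01 to 0.24 against RA_0 in AP_1h, PLA_1h and PLA_34d, and -0.14 in AP_34d, with its sign turned by 2 to 7 of the 24 alternatives. In AP_34d against PLA_34d it was -0.36, and its sign turned in 2 of the 24. Without overlap 0 were higher and 3 lower there, beside 16% and 15% of all transcripts.

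Targets of interferon had medians below 0 in AP_34d against PLA_34d and, for those of interferon gamma, above 0 against RA_0, and none passed limma. In AP_34d against PLA_34d the median log2 difference was -0.67 over the 12 interferon gamma targets tested, with 0 without overlap higher and 4 lower, and -0.35 over the 31 targets of type I interferon, with 1 higher and 8 lower, beside 16% and 15% of all transcripts. Both medians were negative in all 24 alternatives (-1.05 to -0.31 and -0.53 to -0.07). The leukocyte sum was also higher in PLA_34d, through replicate 1, and its part in these medians was not tested. The 12 interferon gamma targets tested had a median log2 difference of 0.65 in AP_1h, 0.35 in PLA_1h, 0.16 in AP_34d and 0.66 in PLA_34d against RA_0. The sign turned in 2 of the 24 alternatives in AP_1h, AP_34d and PLA_34d. Without overlap 2, 2, 1 and 3 of them were higher and 0, 1, 2 and 1 lower, near the shares given above for all transcripts. Il18bp, a decoy for interleukin 18, met the rule of the study downward in PLA_1h and AP_34d, and the chemokine Cxcl11, which overlaps another symbol, upward in AP_1h. The 31 targets of type I interferon had medians of -0.02, 0.08, -0.23 and 0.05 against RA_0. Ifi27l2b met the rule upward in AP_1h and PLA_1h, with 19.6 and 15.4, and 14.7 and 12.3 CPM against 7.4 and 4.01 in RA_0, and Cmpk2 downward in AP_1h and AP_34d, with 3.78 and 7.14, and 3.71 and 4.78 CPM against 12.9 and 11. Isg20 and Ifit3 each met it in 1 pair within an arm.

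Other ubiquitin-like modifiers, with the enzymes that attach FAT10, were looked up beside Ubd. Of 17 transcripts tested, the list's median log2 difference lay between -0.22 and 0.23 in each of the comparisons. In AP_34d against PLA_34d 7 were without overlap higher and 1 lower, beside 16% and 15% of all transcripts. Uba7, the activating enzyme of the interferon-induced modifier Isg15, was at 1.95 and 1.64 CPM in AP_34d and 8.19 and 4.55 in PLA_34d. Of 8 transcripts tested for TNF receptors and κB factors, Tnfrsf1a, a receptor of TNF, met the rule in AP_34d against RA_0 and against PLA_34d. It was at 57.8 and 88 CPM in AP_34d, 31 and 35.3 in RA_0, and 32.6 and 24.4 in PLA_34d, with 78.8 and 29.2 in AP_1h. Of all transcripts 2.82% and 3.57% met the rule there in either direction. The smallest limma adjusted p of Tnfrsf1a over the pairs of groups was 0.772. The median log2 difference of the 8 in AP_34d against PLA_34d was -0.13. Of the 126 transcripts tested in these lists limma, limma-voom and edgeR called 0 in any comparison. In limma 32 had an unadjusted p under 0.05 in at least 1 comparison. The share of all transcripts at that level in any comparison was not counted, so this number is not read as a result. DESeq2 called 3, among them Psme4 in AP_34d against RA_0 and Irf8, a leukocyte factor, in PLA_34d against RA_0. Over all transcripts tested it called 33 and 38 in these comparisons.

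The transcripts whose levels were most like those of Ubd, by Pearson's r of log2(CPM + 1) over the 10 libraries and 10258 other transcripts, were Cilp (r = 0.890), RT1-CE10 (0.885), Slc2a6 (0.875), Nos1 (0.806) and Manba (0.801). RT1-CE10, an MHC class I gene, was at 15.5 and 19.8 CPM in RA_0, 30.2 and 26.7 in AP_1h, 39.6 and 36.2 in PLA_1h, 27.9 and 20.8 in AP_34d, and 46.3 and 29.6 in PLA_34d. Without the 2 libraries farthest from Ubd's median the 5 values of r were 0.75, 0.83, 0.86, 0.69 and 0.64. The other 7 genes ranked between 216 (Gbp2, r = 0.52) and 2480 (Tap2, r = 0.18) in the same order. These values were chosen as the highest and describe the 10 libraries only.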

How the data were processed

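Polyadenylated RNA of each muscle sample was sequenced on an Illumina HiSeq. Per the labels and the methods of the study, the authors used CASAVA 1.8.2, cutadapt 1.2.1, Bowtie2 2.1.0 on rn4, HTSeq 0.5.4p3 to count reads per transcript, and edgeR 3.4.2. The deposited values are a signal per transcript, CPM scaled with TMM factors; whether counting used strand is not given in the sources used here. Each value was a whole multiple of 1 read (tolerance 0.01) in 100% of cases, so reads were recovered.

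Groups came from the labels, which give 2 libraries each and do not say whether replicates are separate animals; p-values measure the spread between these libraries. A transcript was tested (10259 of 17221) if some group had 1 CPM or more in each of its libraries. A limma fit of log2(CPM + 1) with a mean trend used all 10 libraries, 1 mean per group (5 residual and 5.14 prior degrees of freedom). Fold changes on that scale understate those of low genes. Benjamini-Hochberg adjustment ran over all transcripts tested, and an adjusted p under 0.05 was a call. An exact permutation test of 2 against 2 libraries cannot go below 0.333, so none was run. Values in all libraries are given for the 8 genes; log2 differences are printed for Ubd throughout, and for others where libraries do not overlap and the difference is at least 1. Other lists name at most 4 genes each, those meeting the rule of the study in most pairs of groups, and a few named in any case. The genes and lists were chosen with earlier results of these data known. Nlrc5 had been listed for naming and was not analysed here, and some other genes that the rule names are not reported here.

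Settings tried besides were a pseudocount of 0.25 or 4, all transcripts with reads, a minimum mean of 5 CPM, CPM without TMM, quantile normalization, leaving out the 20 most abundant transcripts, no trend, compared groups alone, a replicate block, limma-voom, edgeR and DESeq2 on recovered reads, and each library left out; leaving out AP_1h and PLA_34d replicate 1 together was added after seeing the data. Scripts were tested on simulated data. Fits were made in limma 3.58.1, DESeq2 1.42.0 and edgeR 4.0.16 under R 4.3.3, tables in pandas 2.3.3 under Python 3.11.15. Counting error alone allows up to 0.297 to 0.716 CPM at a count of 0 (3 reads).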

Additional observations from a re-analysis of the deposited data

How the results depend on the processing

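Limits first. With 2 libraries a group no gene of the 8 passed limma, which says nothing of stability. DESeq2 on the recovered reads called 1 gene, Ubd, in AP_1h, PLA_1h and PLA_34d against RA_0, in AP_34d against PLA_34d and in AP against PLA over both times, and the fit of the compared groups alone called 1, Ubd, in AP_1h against RA_0. Over all transcripts DESeq2 called 173, 11, 38, 90 and 64 in its comparisons above, in the order given. The fit of the compared groups alone called 108 transcripts in AP_1h against RA_0. As Ubd was picked for its rise against RA_0, the calls against that group are no test of it. The other alternatives called 0 of the 8 in each comparison, leaving out any library included (range 0 to 0). The log2 difference of Ubd in AP_34d against RA_0 reversed to -0.59 without AP_34d replicate 1 (range with a library left out -0.59 to 1.13), and that of Irf1 in AP_34d against PLA_34d (-0.36) reversed in 2 alternatives, to at most 0.41. CPM without TMM factors moved the median of all transcripts by up to 0.23 in a pair of groups (PLA_34d against RA_0). Over all transcripts the number called ran from 0 to 173 in AP_1h against RA_0 (3 in limma, 173 in DESeq2), and leaving out PLA_34d replicate 2 gave 161 to 174 calls in the comparisons of PLA_34d with RA_0, PLA_1h and AP_34d. The labels do not say whether library numbers pair the samples. Deviations of same-numbered libraries correlated at -0.46 to 0.45 over 10 pairs of groups, 4 of them over 0.1. With 1 difference per group these values cannot settle it. A block for the replicate number called 0 of the 8, and 0 instead of 3 transcripts in AP_1h against RA_0; by the rule of the study it moved the count in PLA_34d against RA_0 from 1 to 2. Reads for Ubd, 11 and 12 in the poorest libraries, limit its lowest levels. The causes were not tested.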
